A study of Medicago sativa with 15 samples.

Results

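Roots of alfalfa (Medicago sativa, a forage legume whose cells carry 4 sets of chromosomes) were compared between 12 h and 8 h of alkaline stress. The stress was NaHCO3 at 50 mmol/L, and the 6 libraries of these times, 3 each, were taken from a series of 15 by the hour in the sample titles. The 3 libraries of roots under normal conditions, called control, were set beside every change. Libraries at 4 h and 24 h of the same stress, 3 each, entered the fits to estimate the spread. All libraries came from seedling roots and from total RNA, and the labels name neither a cultivar nor whether replicates were separate plants, so the tests below measure differences between libraries that may be technical. The control carries no hour, so a change from 8 h to 12 h cannot be told apart from a change with the time of day.

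Sodium bicarbonate raises the pH around the root as well as its bicarbonate and sodium. At high pH iron, phosphate and several other nutrients become less soluble, and roots of many plants are known to answer with proton pumps, organic acids and sodium transporters. Which genes of these pathways moved could not be read here, because the deposited tables give IDs without names, and the RefSeq gene table of the Bolivia_mono assembly held 0 of the 164632 IDs. For the same reason root marker genes could not be checked and no sequence is shown. Genes are described by ID, by coding length, by level and by pattern, and 2 IDs are printed in each direction.

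The 12 h libraries held 6863315, 13196868 and 12204421 counts, and the 8 h libraries 13615498, 15180708 and 7621064 counts. The control libraries held 11266060 to 14262860 counts. At both times the shallowest library took values between those of its 2 partners at most genes (those with 300 counts or more in the group). This was 12 h replicate 1, at 79.3% of 18271 genes, and 8 h replicate 3, at 75.6% of 18747 genes. For the other libraries the share was 9.8% and 10.9% at 12 h, 12.1% and 12.3% at 8 h, and 23.1% to 38.8% in control. These 2 libraries are called intermediate below. Whether they are independent samples of their groups was not tested. Every SD with n = 3, every count of groups that do not overlap and every 15-library test below counts them as replicates; if they are not, each time has 2. The main counts and levels are therefore also given without them. Not so given are the counts of groups that do not overlap, fold changes over control with their tests, and the level quartiles. The levels of genes with no count at 1 time also include them.

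The remaining libraries of a time were far apart. Over 27967 genes with a mean of at least 5 CPM (the count scaled to the same library total in every library), 20.6% differed by at least 4-fold between 12 h replicates 2 and 3, on the scale of log2(CPM + 1). Between 8 h replicates 1 and 2 it was 14.4% of genes, and between control libraries 2.9% to 6.6%. Each of the 4 pairs that set a remaining 12 h library against a remaining 8 h library differed at 14.9% to 18.6% of these genes. The 12 h replicates 2 and 3 were thus farther from each other than either was from an 8 h library by this measure. Their Pearson correlation across genes was 0.528, against 0.560 to 0.661 for the 4 pairs across times; genes are not independent replicates, and the pairs share libraries.

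**Figure D1:**
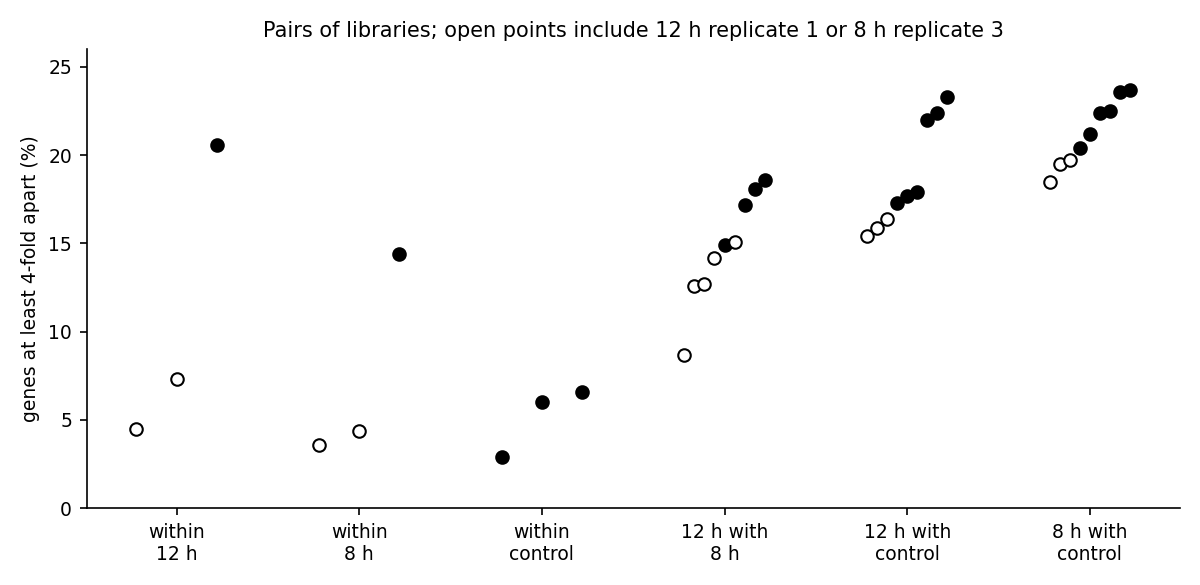
Each point is a pair of libraries, placed by kind of pair along the horizontal axis, and the vertical axis gives the percentage of 27967 genes at least 4-fold apart. Filled points hold neither intermediate library; the filled pair within 12 h, at 20.6%, lies above all 4 filled pairs of 12 h with 8 h, at 14.9% to 18.6%.

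The comparison of 12 h with 8 h asks which genes changed as the stress went on. With all 15 libraries, 1251 of 68605 genes changed, which is 1.82% (edgeR's quasi-likelihood test, Benjamini-Hochberg adjusted p below 0.05). Of these, 667 genes (0.972% of those tested) were higher at 12 h and 584 genes (0.851%) were lower. Without the 2 intermediate libraries edgeR called 0 of 73085 genes, and 6596 genes, or 9.03%, had an unadjusted p below 0.05. With all libraries that share was 20.3%, or 13907 genes. With the same 13 libraries limma-voom called 5 genes (0.00684%), against 1417 with all 15. DESeq2 called 1270 of 58505 genes with an adjusted p (2.17%), against 6776 with all 15. In all 3 tools the number of calls was thus lower without 12 h replicate 1 and 8 h replicate 3, and in edgeR no gene passed. Leaving out only 12 h replicate 1 gave 71 genes, and leaving out only 8 h replicate 3 gave 53.

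The other libraries also moved the count and its direction. The count was 450 when 12 h replicate 2 was left out, 454 when 8 h replicate 1 was, and 349 when 8 h replicate 2 was. Higher genes were 57 of the 71, 320 of the 450 and 705 of the 1042 calls without 12 h replicates 1, 2 and 3 in turn. They were 160 of the 454, 124 of the 349 and 22 of the 53 calls without 8 h replicates 1, 2 and 3. Which direction held the larger number of genes thus changed with the group that lost a library. When only the 6 libraries of the 2 times were fitted, edgeR called 1 gene, with 11116 at an unadjusted p below 0.05.

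**Figure D2:**
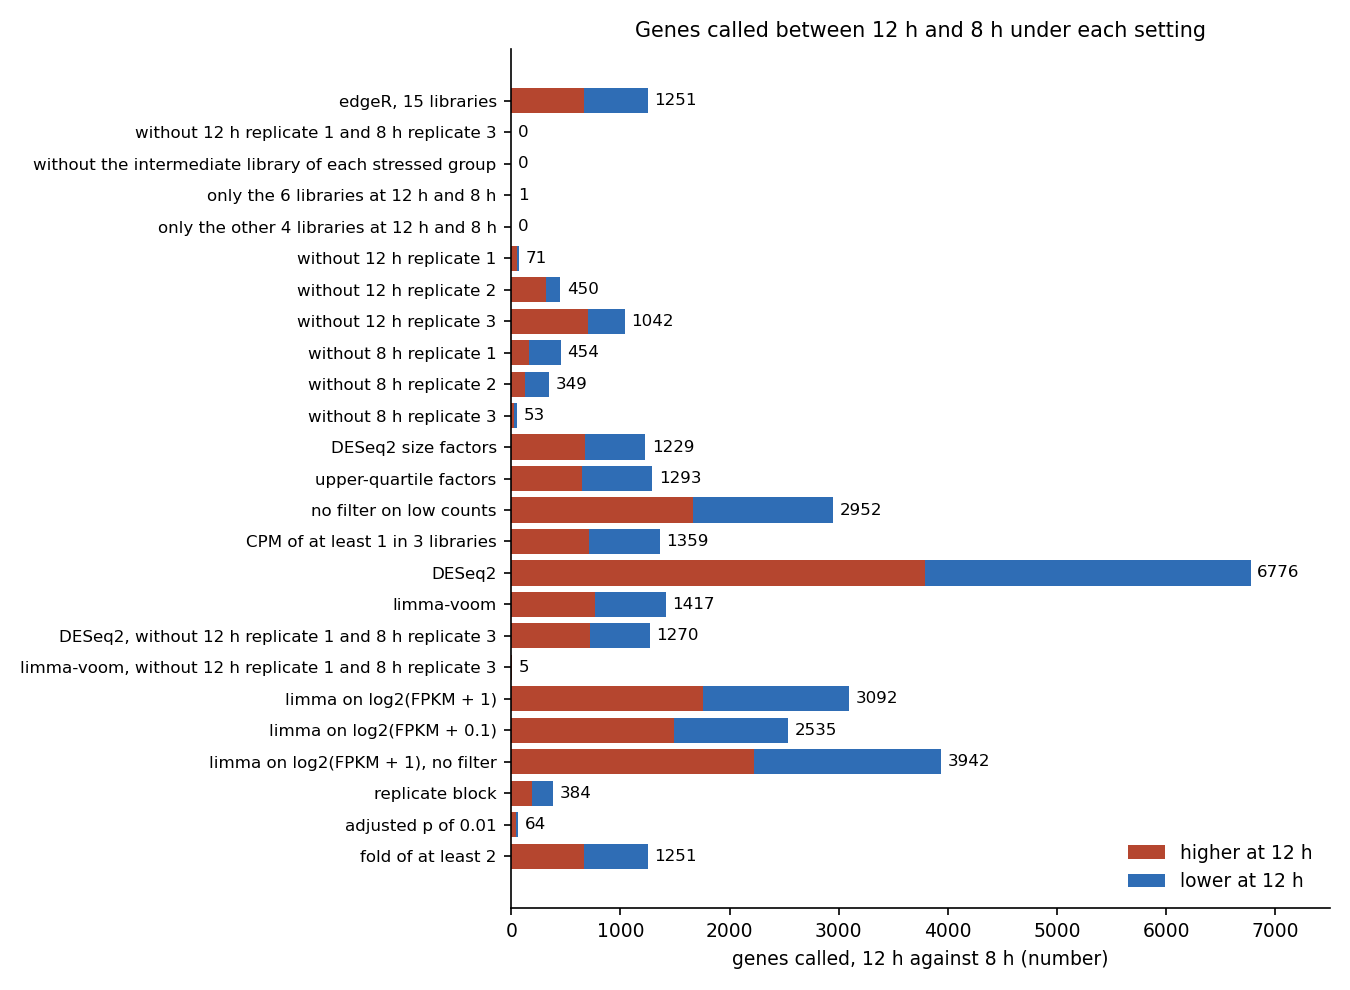
Horizontal bars give the number of genes called between 12 h and 8 h under each setting, split into genes higher and lower at 12 h. The count was 1251 with all 15 libraries and 0 without 12 h replicate 1 and 8 h replicate 3, and it ran up to 6776 with DESeq2.

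The 667 genes called higher at 12 h were mostly genes that stood low at 8 h. Their median level over genes was 12.2 CPM at 12 h, against 0.571 CPM at 8 h, with 7.11 CPM in control. The median log2 fold change was 4.25, or 3.98 with genes that had no count at 8 h set to their lower bound. Over all genes tested the median log2 fold change was 0.06. In 646 of the 667 genes every 12 h library lay above every 8 h library, where 15% of all genes tested did so. The genes were called on these same libraries, so nothing is read from that excess. Without the intermediate libraries the median levels were 12.2 CPM at 12 h and 0.571 CPM at 8 h and the median log2 fold change was 4.25. All 667 kept their direction in that fit, as did 94.8% of all genes tested, since it shares the other libraries.

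The 584 genes called lower at 12 h were higher than control at 8 h and lower than control at 12 h in the median. Their median level was 1.71 CPM at 12 h, against 19.2 CPM at 8 h, with 6.64 CPM in control. The median log2 fold change was -3.30, or -3.29 with genes that had no count at 12 h at their bound, and no called gene in either direction had a size under 1.39. In 570 of the 584 every 12 h library lay below every 8 h library, where 12.7% of all genes tested did so. Nothing is read from that excess either, since the call used these libraries. Without the intermediate libraries the median levels were 1.75 CPM at 12 h and 18.7 CPM at 8 h and the median log2 fold change was -3.27. All 584 kept their direction there, beside the same 94.8% of all genes tested.

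Each change was then placed beside the control level. Among the genes called higher at 12 h, the control mean lay between the 12 h and 8 h means in 457 of 667 genes (68.5%), above both in 185 and below both in 25. Among the genes called lower, it lay between the means in 397 of 584 (68.0%), above both in 99 and below both in 88. Over all genes tested the control mean lay between the means in 29.4%. Genes called in this comparison have 12 h and 8 h means far apart, so a control mean falls between them more often than in genes at large, and nothing is read from that excess. Without the intermediate libraries the same genes gave 455 and 399.

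The 2 directions differed in which time lay near control. Of the genes called higher at 12 h, 315 (47.2%) were within 2-fold of control at 12 h but not at 8 h, and 63 (9.45%) were within 2-fold at 8 h but not at 12 h. Of the genes called lower, 161 (27.6%) were near control at 12 h only and 180 (30.8%) at 8 h only. Over all genes tested these shares were 21.3% and 16.5%. A further 199 of the genes called higher and 176 of those called lower lay more than 2-fold from control at both times and on opposite sides of it, beside 3.36% of all genes tested; genes chosen for a large gap between the times fall there more often. Without the intermediate libraries the counts near control at 12 h only and at 8 h only were 318 and 64 for the genes called higher and 161 and 180 for those called lower, and 196 and 172 lay on opposite sides. The median log2 fold change over control of the genes called higher was 0.77 at 12 h and -3.44 at 8 h, and of the genes called lower -1.95 at 12 h and 1.52 at 8 h. Over all genes tested these medians were 0.00 at 12 h and -0.10 at 8 h. The comparisons with control share the 12 h, 8 h and control libraries with the calls, so these values are a description. No test of the difference between the directions was made.

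**Figure D3:**
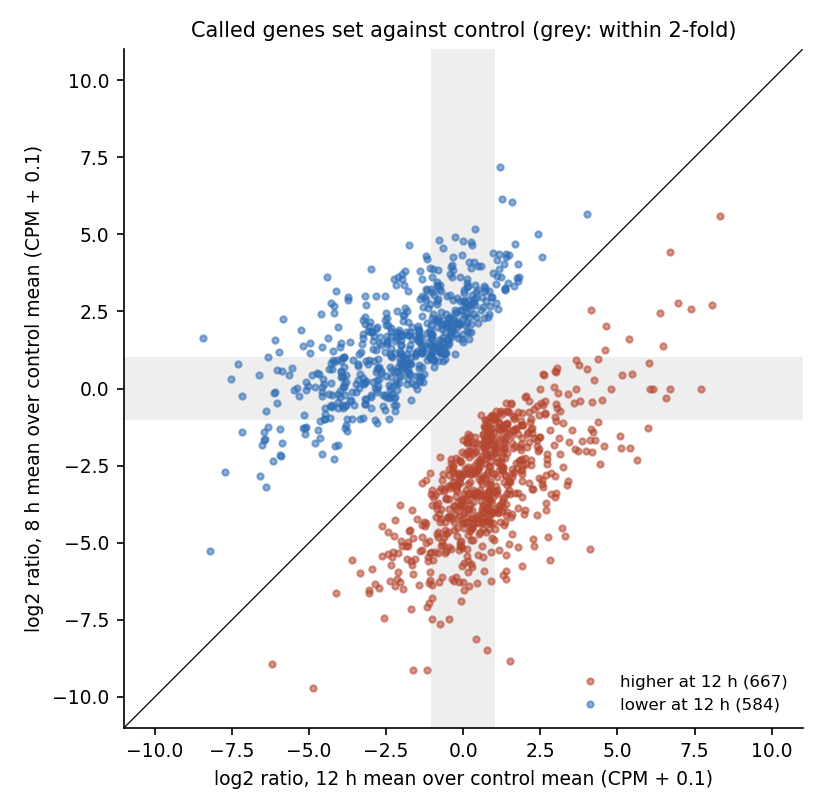
Each point is 1 of the 1251 called genes, with the log2 ratio of the 12 h mean to the control mean on the horizontal axis and of the 8 h mean to the control mean on the vertical axis, after adding 0.1 CPM. Grey bands mark levels within 2-fold of control; 315 of the 667 genes higher at 12 h lie in the vertical band alone.

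Some genes had no count at all at 1 of the 2 times. No count was found in any 8 h library for 138 of the 667 genes called higher at 12 h (20.7%), and in any 12 h library for 67 of the 584 genes called lower (11.5%). Over all genes tested, 3.34% had no count at 8 h and 2.12% none at 12 h. Counted without the intermediate libraries, the numbers were 138 and 68. A count of 0 over a time allows a level of up to 0.0824 CPM at 8 h and 0.0930 CPM at 12 h, which is 3 counts over the group's 3 libraries and covers counting error alone. Where present, the 138 genes had a median of 2.72 CPM at 12 h, beside 3.14 CPM over all genes tested. The 67 genes had a median of 2.79 CPM at 8 h, beside 2.79 CPM over all genes tested. At least 5 CPM was reached by 41 and 19 of them, and the same share over all genes tested was not taken.

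The 4 named genes are the 2 highest and the 2 lowest log2 fold changes among 372 genes higher and 397 lower that met a rule on level and on agreement between libraries. They pass the 15-library test by that rule, and 2 of the 4 sit at 0 in every 8 h library and 2 in every 12 h library.

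MS.gene045927 (coding length 459 nt) had 63.8, 18.2 and 105 CPM in 12 h replicates 1, 2 and 3, and no count in any 8 h library. The controls had 4.49, 5.18 and 0.976 CPM. All 12 h libraries thus lay above every control and every 8 h library, although replicates 2 and 3 differed widely. Its 12 h mean of 62.4 ± 43.5 CPM (SD, n = 3) was at least 758-fold higher than at 8 h, or at least 592-fold without the intermediate libraries. The fitted log2 fold change was 12.53 ± 1.32 (SE; edgeR adjusted p = 0.00200), and without the intermediate libraries 12.70 ± 1.71 (edgeR adjusted p = 0.0676). Since the 8 h group is at 0, a fitted fold and its SE depend on the prior count, so the SE does not tell how closely the fold is known. This holds for every named gene. Its mean was 17.6-fold above control at 12 h and at least 43.1-fold below control at 8 h (edgeR adjusted p = 0.00817 and 0.00211).

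MS.gene75099 (777 nt) had 36.1, 32.0 and 30.1 CPM in the 12 h libraries and no count at 8 h. The controls had 0.421, 0 and 13.4 CPM, so a single control library carried nearly all of the control counts. Its 12 h mean of 32.7 ± 3.10 CPM (SD, n = 3) was at least 397-fold higher than at 8 h, or at least 298-fold without the intermediate libraries. The gene was evenly expressed at 12 h, unlike MS.gene045927. The log2 fold change was 11.55 ± 2.51 (SE; edgeR adjusted p = 0.0380), and without the intermediate libraries 11.62 ± 3.17 (edgeR adjusted p = 0.402). Its mean was 7.10-fold that of control at 12 h, which did not pass the test (edgeR adjusted p = 0.265), and at least 55.9-fold below control at 8 h (edgeR adjusted p = 0.0342). The difference between 12 h and 8 h missed the threshold in edgeR when any 1 of the 6 libraries was left out.

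MS.gene011226 (933 nt) had no count in any 12 h library, and 114, 84.8 and 122 CPM in 8 h replicates 1, 2 and 3. The controls had 41.3, 13.9 and 47.8 CPM. All 8 h libraries lay above all controls, and the 12 h libraries below both. Its level at 12 h was at least 1152-fold lower than the 8 h mean of 107 ± 19.8 CPM (SD, n = 3), or at least 842-fold without the intermediate libraries. The log2 fold change was -13.32 ± 1.06 (SE; edgeR adjusted p = 0.00114), and without the intermediate libraries -13.35 ± 1.40 (edgeR adjusted p = 0.0544). Against control it was at least 369-fold lower at 12 h (edgeR adjusted p = 0.000358), and at 8 h its mean was 3.12-fold that of control (edgeR adjusted p = 0.0680, past no threshold).

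MS.gene29717 (1725 nt) also had no count at 12 h, and 7.12, 44.5 and 30.8 CPM in the 8 h libraries. The controls had 8.76, 3.03 and 5.06 CPM, and 8 h replicate 1 lay among them. Its level at 12 h was at least 295-fold lower than the 8 h mean of 27.5 ± 18.9 CPM (SD, n = 3), or at least 218-fold without the intermediate libraries. The log2 fold change was -11.34 ± 1.13 (SE; edgeR adjusted p = 0.00161), and without the intermediate libraries -11.39 ± 1.46 (edgeR adjusted p = 0.0676). Against control it was at least 60.4-fold lower at 12 h (edgeR adjusted p = 0.000849), and at 8 h its mean was 4.89-fold higher (edgeR adjusted p = 0.0283) in groups that overlapped. In bulk roots a lower count cannot tell fewer cells of a type from less RNA per cell. Reads of near-identical gene copies may also be split among IDs by the authors' counting, so each ID may be 1 of several copies.

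**Figure D4:**
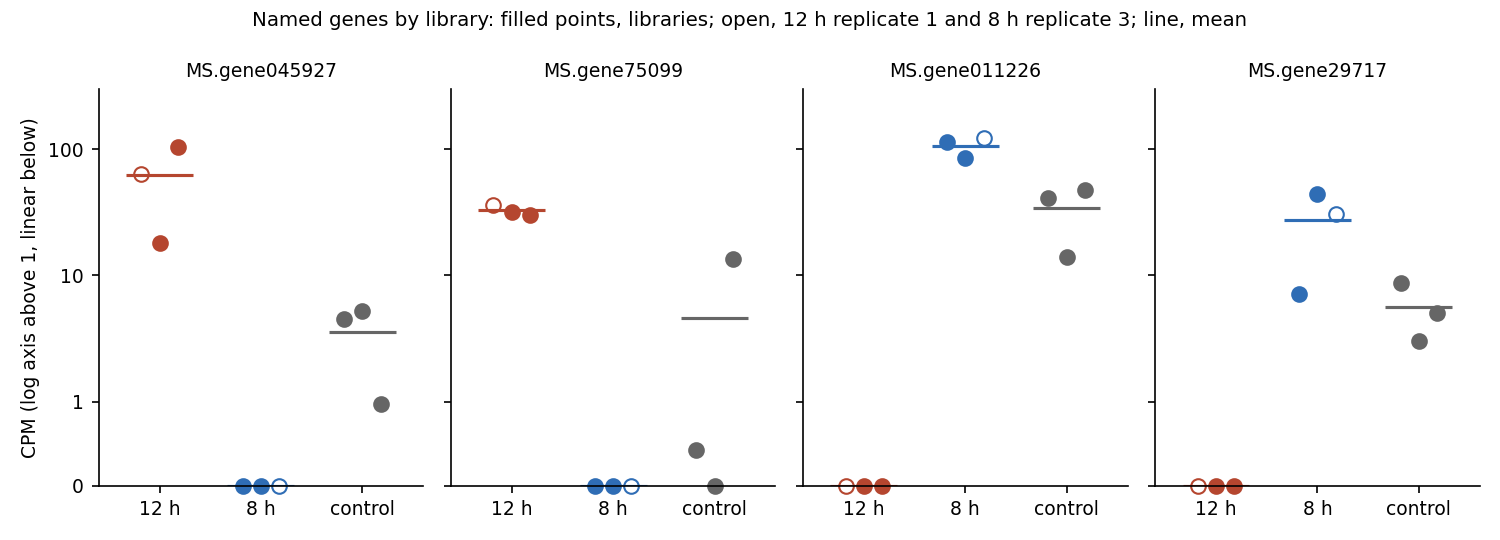
Points give the CPM of each library at 12 h, at 8 h and in control for the 4 genes, on an axis that is logarithmic above 1 CPM and linear below; lines are group means and open points the intermediate libraries. The first pair of genes is at 0 in every 8 h library and the second pair in every 12 h library.

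The 5 genes that limma-voom called without the intermediate libraries, chosen here after their values were seen, were all among the 1251 in the same direction, and 1 of them was MS.gene011226. The strongest of the 3 higher ones, of 942 nt, had 495, 577 and 395 CPM at 12 h, against 2.20, 0 and 1.44 CPM at 8 h, with 392, 367 and 347 CPM in control. Its 8 h libraries alone stood apart, while 12 h and control were both high (limma-voom adjusted p = 0.0150). A gene of 822 nt had 26.8, 28.0 and 8.19 CPM at 12 h and no count at 8 h or in control. The last higher gene, of 840 nt, had 11.2, 8.71 and 12.6 CPM at 12 h, none at 8 h, and 3.79, 2.59 and 5.86 CPM in control. A lower gene of 3369 nt had no count at 12 h, against 36.6, 15.2 and 27.0 CPM at 8 h, with 0.771, 1.26 and 4.08 CPM in control. The adjusted p of these 3 genes was 0.0173, 0.0390 and 0.0390 in limma-voom.

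The 1 gene that edgeR called on the 6 libraries alone, of 465 nt, was also among the 1251. It had 508, 447 and 464 CPM at 12 h, against 0.734, 0.790 and 0.525 CPM at 8 h, with 392, 325 and 110 CPM in control (edgeR adjusted p = 0.00912). As with the gene of 942 nt, the level at 8 h stood far below both the others. DESeq2 without the intermediate libraries shared 544 higher and 431 lower calls with the 15-library list, which is 76.8% of its own 1270 calls and 77.9% of the 1251; both lists use the same remaining libraries.

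Called genes were found at all levels, but fewer at low ones. Genes were divided into quartiles by mean CPM over the 15 libraries, and the top quartile held 246 of the 667 genes called higher (36.9%) and 291 of the 584 called lower (49.8%), out of 17151 genes in it. The lowest quartile held 58 and 35 of them. Per kilobase of coding length, the median level of the genes called higher was 13.7 FPKM at 12 h, against 0.587 FPKM at 8 h, and of the genes called lower 1.36 FPKM at 12 h, against 14.6 FPKM at 8 h. Without the intermediate libraries these medians were 13.3 against 0.601 FPKM and 1.43 against 13.8 FPKM, in the same order. The median coding length was 948 nt for the genes called higher and 1203 nt for those called lower, beside 1152 nt over all genes tested.

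The spread between libraries reached the called genes too. Among the genes called higher at 12 h, 166 of 667 (24.9%) differed by at least 4-fold between 12 h replicates 2 and 3, and 8 (1.20%) between 8 h replicates 1 and 2. Among the genes called lower, it was 14 of 584 (2.40%) between the 12 h libraries and 94 (16.1%) between the 8 h libraries. Over all genes tested the shares were 14.0% at 12 h and 10.1% at 8 h. Over the 27967 genes with a mean of at least 5 CPM they were 20.6% and 14.4%, so these shares depend on the level of the genes. At the time where a called gene is low, a difference of 4-fold can hardly arise on the scale of log2(CPM + 1), so the times are not compared in these shares.

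The most abundant genes were shared in large part. Of the 100 genes with the highest mean FPKM at 12 h, 66 were among the 100 highest at 8 h and 37 among the 100 highest in control, and 28 were in all 3 lists. The 8 h and control lists shared 36. Of the 100 at 12 h, 3 were called higher at 12 h, and of the 100 at 8 h, 3 were called lower, beside 0.972% and 0.851% of all genes tested. With means taken without the intermediate libraries the 12 h and 8 h lists shared 65 genes, and 2 and 3 genes were called in this way.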

How the data were processed

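The authors deposited raw read counts per gene and FPKM for the same gene IDs; per the file headers both tables have 15 library columns, while a name for the aligner, counter, strand setting or build is not given in the sources used here. Dividing count by deposited FPKM and library total returned a single length per ID (to 0.01 nt) for all 108456 IDs with a count. Since 95.96% of the lengths divide by 3, the term coding length is used. The test was that of edgeR 4.0.16, run in R 4.3.3 (filterByExpr, TMM, quasi-likelihood, 5 groups, two-sided), with DESeq2 1.42.0 and limma 3.58.1 as alternatives. Standard errors are the log2 fold change divided by the square root of F. For the named genes, at 0 throughout a time, this ratio depends on the prior count. Bounds use 3 counts over a group. The IDs printed are the 2 extreme genes per direction among called genes with at least 5 CPM over the 6 libraries, no overlap between times, and an unadjusted p below 0.05 in the same direction without the intermediate libraries. All 667 genes called higher and all 584 called lower met the last condition, so it removed none. Genes, lists and tests were chosen with earlier results of these data known. On simulated counts every tool gave the right directions, and the share of false calls in edgeR stayed within a limit set wider than its nominal rate. DESeq2 exceeded its nominal rate of false calls, and limma on log2 values recovered the fewest of the changed genes. Recovery was not split by level. The simulated libraries were drawn independently, with the same spread for all genes and groups. The spread here differed between groups, so the simulation does not rank the tools on these data.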

Additional observations from a re-analysis of the deposited data

How the results depend on the processing

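The count of 1251 genes stayed within 1.5 times under DESeq2 size factors (1229), upper-quartile factors (1293), a CPM filter (1359) and limma-voom (1417). Of the 1251 genes, these settings called 1219, 1230, 1248 and 876 in turn in the same direction, so the limma-voom list differed more than its total. A limit of 2-fold could not change the count, since no called gene had a log2 fold change under 1.39 in size. The count was 0 without 12 h replicate 1 and 8 h replicate 3. It was also 0 without the intermediate library of each stressed group (4030 at an unadjusted p below 0.05). On the other 4 libraries at 12 h and 8 h alone it was 0 (2326 at an unadjusted p below 0.05). It was 1 on the 6 libraries alone and 5 with limma-voom without the 2 libraries. Leaving out 1 library gave 53 to 1042. It was 2952 with no filter, 6776 with DESeq2 and 1270 with DESeq2 without the 2 intermediate libraries, which changes tool and libraries together, 3092 with limma on log2(FPKM + 1), or 3942 with no filter, 2535 when 0.1 was added in place of 1, and 64 at an adjusted p of 0.01. DESeq2 exceeded its nominal rate of false calls on simulated data. The simulated libraries were independent with the same spread in all groups, which these data do not show, so the tools are not ranked by it. The DESeq2 counts are read as neither more nor less sensitive. A stricter threshold lowers the count by construction, and the cause of the other differences was not tested.

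With the replicate number as a block (replicate block) edgeR called 384 genes. The deviations of same-numbered 12 h and 8 h libraries from their group means correlated at -0.033, 0.040 and 0.0014. Only replicate 2 at 12 h correlated best with its own number. Deviations cancel within a time, and the intermediate libraries lie between their partners. These values therefore cannot decide whether the numbers pair the libraries.

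Each of the 4 named genes is at 0 in every library of 1 time, so its direction is fixed by the counts. Of 22 alternatives fitted to each, MS.gene011226 was called in 18 and MS.gene045927 and MS.gene29717 in 17 each. MS.gene75099 was called in 9 of 20, since DESeq2 gave it no adjusted p. The misses were not scattered. None of the 4 genes was called in any edgeR fit without both intermediate libraries, or in edgeR on the 6 libraries alone. Without the 2 intermediate libraries DESeq2 called 3 of the 4 and limma-voom 1. Depth limits the weak genes: a count of 0 at 8 h allows up to 0.0824 CPM.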

Other observations

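The genes without a count at 1 time were followed through the other groups, as values only. Of the 138 genes with no count at 8 h that were called higher at 12 h, 125 had a count in every control library, 69 in every 4 h library and 97 in every 24 h library. In 44 of them all 12 libraries outside 8 h had a count, so these genes were seen everywhere but at 8 h. No count at 4 h was found in 36 and none at 24 h in 18. Their median level was 1.96 CPM in control, 0.686 CPM at 4 h, 2.72 CPM at 12 h and 0.959 CPM at 24 h.

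Of the 67 genes with no count at 12 h that were called lower at 12 h, 59 had a count in every control library, 35 in every 4 h library and 54 in every 24 h library. In 22 of them all 12 libraries outside 12 h had a count. Their median level was 1.73 CPM in control, 0.829 CPM at 4 h, 2.79 CPM at 8 h and 1.30 CPM at 24 h. The genes were chosen for their counts at 8 h and 12 h, and intermediate libraries are counted among the 4 h and 24 h libraries. Both sets passed the filter on low counts through libraries outside the time without counts, so counts there are in part fixed by it. The same shares over all genes tested were not taken.

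The 4 named genes did not share a course. MS.gene045927 averaged 1.12 ± 0.519 CPM at 4 h and 6.64 ± 1.67 CPM at 24 h (SD, n = 3 each), and MS.gene75099 0.3 ± 0.262 CPM at 4 h and 0.616 ± 0.583 CPM at 24 h. MS.gene011226 had no count in any 4 h library, as at 12 h, and 38.4 ± 18.6 CPM at 24 h. MS.gene29717 had 12.1 ± 1.96 CPM at 4 h and 35.8 ± 9.56 CPM at 24 h, so that 12 h was the 1 group of the series in which it had no count.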
